A study of Homo sapiens with 9 samples.

Results

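The mRNAs described here encode the machinery that brings proteins into mitochondria and matures them there: the translocases of the outer membrane (TOM) and inner membrane (TIM), the import motor, and the chaperones and proteases of the matrix. A list of 34 genes was taken by name, and 32 of them had counts in exon windows, out of 29165 identifiers with exon windows in all. TIMM22 was not analysed here, and PAM16 had windows in introns but none in exons. The counts come from eCLIP of malate dehydrogenase 2 (MDH2) in Huh7 cells, a human hepatoma line grown in low-glucose DMEM with fetal bovine serum. All cells were UV-crosslinked and unmodified, so that endogenous MDH2 was purified. The 9 libraries comprise 3 replicates each of the MDH2 IP, of an IP with isotype-matched IgG, and of the size-matched input (SMI), a part of the lysate that was not purified and was excised over a matching gel range. PCR ran for 14 cycles in both kinds of IP and for 9 in the SMI, so that cycle number and the comparison of an IP with the SMI cannot be told apart. The study describes the replicates as independent libraries, and nothing in the labels says that they came from separate cultures, so p-values measure the spread between libraries.

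Most mitochondrial proteins are encoded in the nucleus, translated in the cytosol and imported. Precursors are recognised by receptors of the TOM complex and pass through its pore. From there, hydrophobic carriers are escorted by small TIM chaperones, while precursors with an N-terminal presequence are threaded through the TIM23 channel and pulled in by the HSP70-based motor. In the matrix, the processing peptidase removes the presequence, the HSP60 system helps folding, and the AAA+ proteases remove damaged protein. MDH2 is itself such a precursor. The comparison of MDH2 IP with SMI asks which RNAs were cross-linked to proteins in the MDH2 IP above their level in the lysate, and the comparison with IgG IP asks whether the antibody made the difference.

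Sites of cross-linking were counted in 50 nt windows laid down at a step of 20 nt, and a site falls into up to 3 windows. Window counts summed to between 5899767 and 9482209 per library in the MDH2 IP, between 8311027 and 9788461 in the SMI, and between 1631220 and 2942624 in the IgG IP, so that the IgG values carry the largest counting error. The 32 mRNAs held between 10378 and 16120 exon counts per MDH2 IP library, between 9566 and 12130 per SMI library and between 1455 and 3388 per IgG IP library. Their share of all exon counts was between 0.301% and 0.319% in the MDH2 IP, between 0.257% and 0.271% in the SMI and between 0.260% and 0.299% in the IgG IP. The MDH2 IP libraries thus lay above the SMI libraries and just above the IgG IP libraries. Across 13977 genes, log2 CPM correlated at between 0.933 and 0.966 among MDH2 IP libraries and at between 0.794 and 0.841 among IgG IP libraries. The 8 hepatoma markers (such as ALB, AFP and APOB) summed to between 5731 and 13079 CPM (counts per 1000000 exon counts, scaled by TMM, the trimmed mean of M-values) in the 9 libraries, and 8 markers of other lineages to between 4.87 and 20.6.

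The sequences below show where counts of 6 of these mRNAs peaked, chosen because the exon comparisons turn on them or because they hold many counts. Each is read from GRCh38 on the coding strand, 5′ to 3′, and only coding bases are shown. Capitals mark the coding bases of the 50 nt exon window with the highest mean MDH2 IP level, and lower case the coding bases beside it. Such peak windows were picked by their MDH2 IP level, so that their counts lean towards the MDH2 IP when set beside the other groups. For LONP1, capitals mark the coding bases shared by the 2 windows that were enriched over SMI. The last sequence is the window of TOMM20 intron 1 with the most SMI counts, in capitals throughout.
LONP1, exon 1, chr19:5720084-5720132, minus strand: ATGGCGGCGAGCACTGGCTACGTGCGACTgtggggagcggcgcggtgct
TIMM13, exon 1, chr19:2427474-2427533, minus strand: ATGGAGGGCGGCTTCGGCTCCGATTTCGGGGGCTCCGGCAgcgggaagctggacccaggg
HSPD1, exon 4, chr2:197498775-197498848, minus strand: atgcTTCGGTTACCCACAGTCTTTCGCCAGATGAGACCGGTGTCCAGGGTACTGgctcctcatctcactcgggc
TIMM17B, exon 4, chrX:48896778-48896858, minus strand: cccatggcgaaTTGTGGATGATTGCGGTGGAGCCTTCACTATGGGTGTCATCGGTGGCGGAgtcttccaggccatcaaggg
PMPCA, exon 3, chr9:136411997-136412066, plus strand: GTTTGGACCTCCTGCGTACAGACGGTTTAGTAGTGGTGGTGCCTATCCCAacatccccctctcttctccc
TOMM40, exon 2, chr19:44891460-44891549, plus strand: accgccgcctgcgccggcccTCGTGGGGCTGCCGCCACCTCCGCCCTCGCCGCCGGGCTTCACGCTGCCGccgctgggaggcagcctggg
TOMM20, intron 1, chr1:235127860-235127909, minus strand: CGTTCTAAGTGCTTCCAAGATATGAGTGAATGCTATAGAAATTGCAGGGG
The LONP1, TIMM13 and HSPD1 sequences begin with the start codon, so that their peak windows lie on or directly after it. Exon numbers are those of the deposited windows, which number the exons of all transcripts of a gene.

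As groups, the import and chaperone mRNAs had no common direction between MDH2 IP and SMI. In exon sums per gene, 2 of the 32 members were higher in the MDH2 IP, PMPCA and TIMM13, and 2 were lower, TOMM20 and TIMM10B, at an adjusted p of at most 0.05 by the quasi-likelihood test of edgeR, adjusted by Benjamini-Hochberg over all 13922 genes tested. Among all genes, 8.6% were higher and 10.7% lower. The median log2 fold change of the members was -0.09 and that of all genes 0.01, and 15 members lay above 0 and 17 below. With total counts in place of TMM as the scale, all genes moved up by 0.16 on the log2 scale, the members' median became 0.07, and the split over all genes changed from 1197 higher and 1496 lower to 1965 higher and 1064 lower. Of the 12 members whose proteins carry a cleaved presequence, 1 was called, PMPCA, which was higher, and their median was 0.12. Of the 20 tested without one, 1 was higher and 2 were lower, with a median of -0.23. That difference was not tested.

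**Figure D1:**
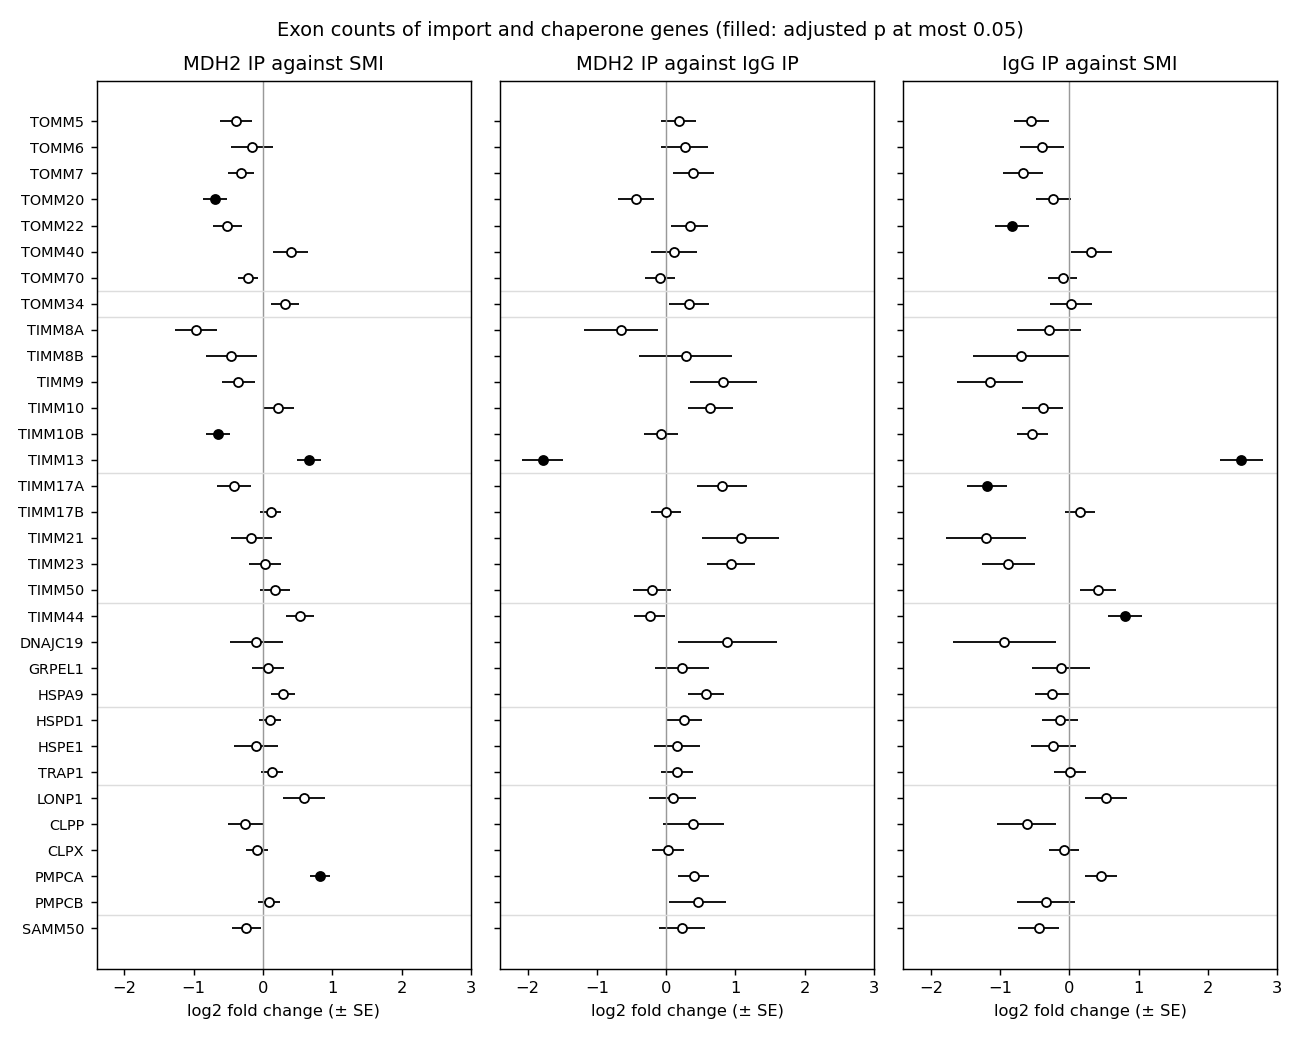
Log2 fold changes of exon counts (x axis, ± SE) for the 32 measured genes (y axis, ordered by role with grey lines between roles), in the 3 comparisons. Filled points passed an adjusted p of at most 0.05: PMPCA, TIMM13, TOMM20 and TIMM10B for MDH2 IP against SMI, TIMM13 for MDH2 IP against IgG IP, and TIMM13, TIMM44, TOMM22 and TIMM17A for IgG IP against SMI.

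The alpha subunit of the mitochondrial processing peptidase, PMPCA, showed the clearest difference from SMI. Its exon level in CPM was 150.3, 151 and 157 in the MDH2 IP, 84.8, 73.6 and 94.6 in the SMI, and 145, 92.6 and 96.8 in the IgG IP. All MDH2 IP libraries lay above all SMI libraries and all IgG IP libraries, although the first IgG IP library came close. The log2 fold change of MDH2 IP over SMI was 0.82 ± 0.15 (SE, n = 3 each, adjusted p = 0.0051, edgeR). Over IgG IP it was 0.40 ± 0.22 (adjusted p = 0.42, edgeR), and that of IgG IP over SMI was 0.45 ± 0.23 (adjusted p = 0.22, edgeR), neither of which passed. Leaving out any MDH2 IP or SMI library kept PMPCA called, with log2 fold changes between 0.73 and 0.90 and adjusted p between 0.00934 and 0.0385 (edgeR). The difference was spread along the mRNA: coding windows held 95.8 ± 4.80 CPM (SD, n = 3) in the MDH2 IP and 50.3 ± 6.93 in the SMI, and windows of the 3′ UTR held 57.0 ± 2.94 and 34.04 ± 3.58. The peak window, in exon 3 (the PMPCA sequence above), had 18, 9 and 11 counts in the MDH2 IP, 1, 1 and 4 in the SMI, and 3, 0 and 2 in the IgG IP, too few for the window test. It was picked by its MDH2 IP level, so that these counts do not measure an excess. PMPCA intron windows were higher in the MDH2 IP as well, with a log2 fold change of 0.93 ± 0.24 (adjusted p = 0.017, edgeR).

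The other subunit of the peptidase, the catalytic PMPCB, did not pass in any comparison. Its level was 66.8 ± 4.49 CPM (SD, n = 3) in the MDH2 IP and 61.6 ± 6.70 in the SMI, a log2 fold change of 0.08 ± 0.16 (SE). In IgG IP it ranged from 11.6 to 75.8. Per kb of mRNA, the MDH2 IP level of PMPCA was 73.3 CPM and that of PMPCB 17.1, while the SMI levels were 40.4 and 15.7.

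**Figure D2:**
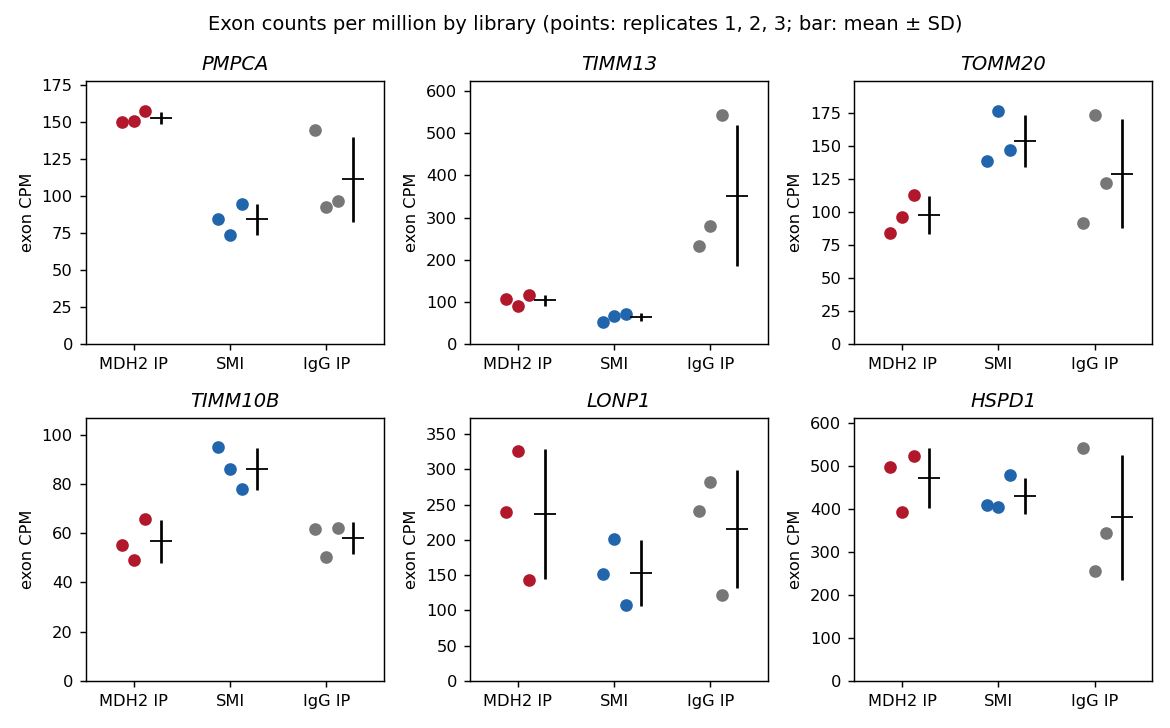
Exon CPM (y axis) of 6 genes in each library, with points for replicates 1, 2 and 3 of MDH2 IP, SMI and IgG IP and a bar for the mean ± SD. PMPCA points of MDH2 IP lie between 150.3 and 157, all above those of SMI, while TIMM13 is highest in the IgG IP, at 233 to 542.

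TIMM13, a small TIM chaperone of the intermembrane space that works with TIMM8A, was higher in the MDH2 IP than in the SMI and higher still in the IgG IP. Its level was 106, 90.4 and 116 CPM in the MDH2 IP, 53.3, 66.6 and 71.8 in the SMI, and 233, 279 and 542 in the IgG IP. None of the 3 groups overlapped. The log2 fold change was 0.67 ± 0.17 for MDH2 IP over SMI (adjusted p = 0.025, edgeR), -1.78 ± 0.30 for MDH2 IP over IgG IP (adjusted p = 0.011) and 2.48 ± 0.31 for IgG IP over SMI (adjusted p = 0.00026). When MDH2 IP replicate 1 or 3 was left out, or replicate 1 or 2 of SMI, the first of these kept its direction with adjusted p between 0.0534 and 0.119 (edgeR), and without MDH2 IP replicate 1 or 2 the second had adjusted p of 0.101 and 0.0679. The IgG excess lay in the 3′ UTR, where windows held 307 ± 169 CPM (SD, n = 3) in the IgG IP, 59.98 ± 9.38 in the MDH2 IP and 37.7 ± 4.02 in the SMI. In coding windows, the IgG IP level, 27.5 ± 7.33, was close to that of MDH2 IP, 27.9 ± 2.696, with 21.2 ± 5.804 in the SMI. In 5′ UTR windows the levels were 17.5 ± 4.21 in the IgG IP, 16.5 ± 2.52 in the MDH2 IP and 4.99 ± 2.32 in the SMI. The 3′ end of TIMM13 overlaps TMPRSS9 on the opposite strand in the annotation.

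**Figure D3:**
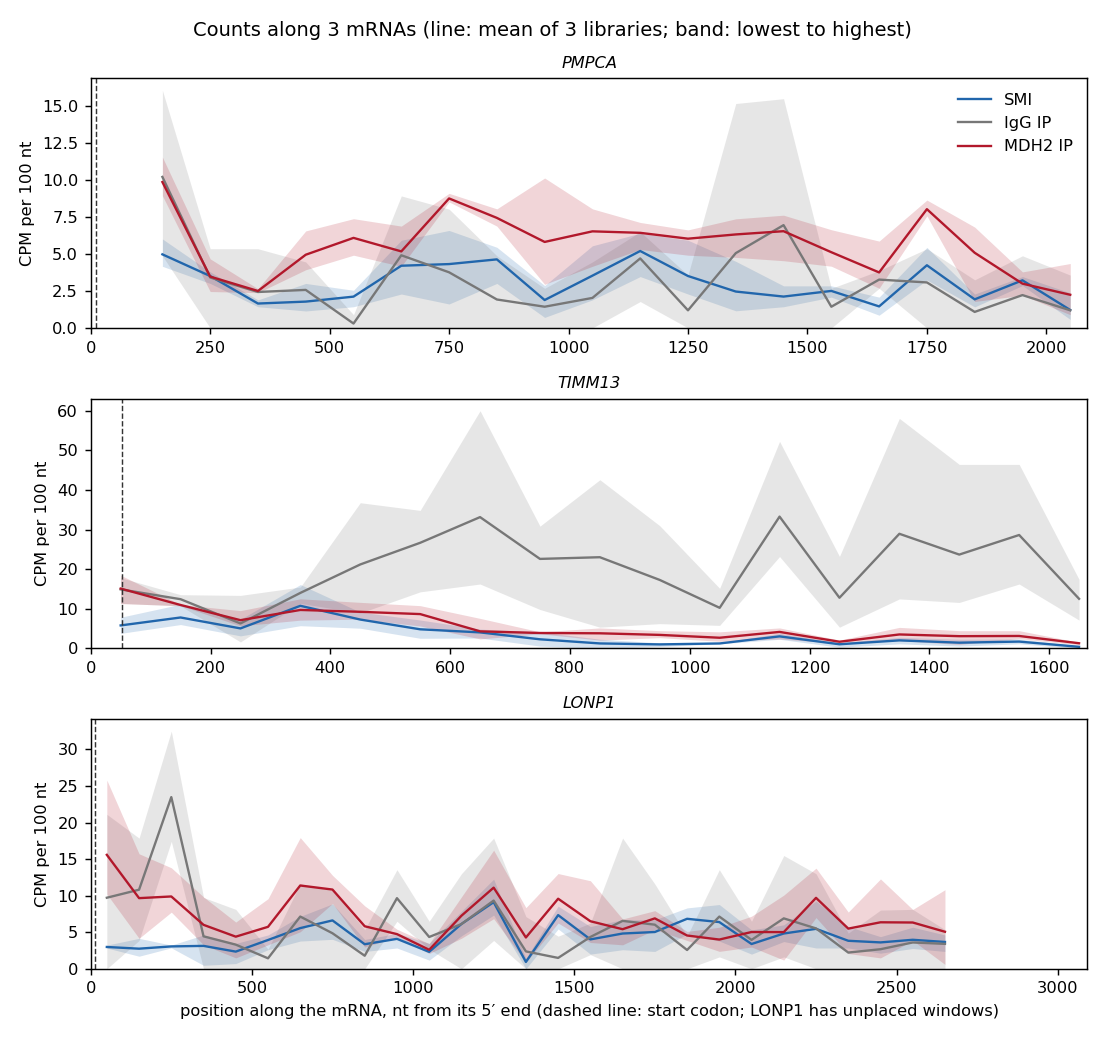
CPM per 100 nt (y axis) along the PMPCA, TIMM13 and LONP1 mRNAs (x axis, nt from the 5′ end), with lines for the mean of 3 libraries, bands from the lowest to the highest library and a dashed line at the start codon. Stretches without placed windows are blank. The IgG excess of TIMM13 lies in the 3′ UTR, and MDH2 IP counts of LONP1 exceed those of SMI near the start codon.

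The remaining small TIMs gave 1 further call. TIMM10B, a subunit of the carrier translocase TIM22, fell by 0.64 ± 0.17 on the log2 scale in the MDH2 IP against SMI (adjusted p = 0.029, edgeR). It was at 55.1, 48.9 and 65.8 CPM in the MDH2 IP, 94.8, 86.0 and 77.7 in the SMI, and 61.6, 50.4 and 62.0 in the IgG IP, so that both IPs lay below the SMI. In the 3′ UTR the level was 45.4 ± 9.20 CPM (SD, n = 3) in the MDH2 IP and 76.9 ± 7.83 in the SMI, whereas in coding windows it was 10.6 ± 1.27 and 8.55 ± 3.42. Windows with 22.2% of the TIMM10B exon counts hold the same counts under another gene identifier. TIMM8A, at 8.71, 5.65 and 6.26 CPM in the MDH2 IP and 14.3, 12.7 and 12.8 in the SMI, did not overlap between the groups but had an adjusted p of 0.050, just above the threshold, with a log2 fold change of -0.97 ± 0.30. TIMM9, TIMM10 and TIMM8B, the first 2 of which form the chaperone hexamer for carriers, had log2 fold changes of -0.35, 0.22 and -0.46 and did not pass.

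TOMM20, a receptor for presequences, was the member of the TOM complex that passed, and it was lower in the MDH2 IP than in the SMI. Its exon level was 84.0, 96.3 and 113 CPM in the MDH2 IP, 139, 176 and 147 in the SMI, and 91.9, 174 and 122 in the IgG IP. MDH2 IP lay below SMI in every library, and IgG IP overlapped both. The log2 fold change was -0.69 ± 0.17 against SMI (adjusted p = 0.020, edgeR) and -0.43 ± 0.26 against IgG IP (adjusted p = 0.46, edgeR). The 3′ UTR level was 71.9 ± 13.7 CPM (SD, n = 3) in the MDH2 IP and 126 ± 13.7 in the SMI, while the 5′ UTR level was 15.0 ± 1.83 and 10.8 ± 3.17, in the opposite order. The call was lost when replicate 1 or 2 of either group was left out, with adjusted p from 0.0520 to 0.0969 (edgeR), and that of TIMM10B without the same libraries, with 0.0658 to 0.120.

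Of the other TOM subunits, the central receptor TOMM22 and the small subunits TOMM5, TOMM6 and TOMM7 had log2 fold changes between -0.51 and -0.16 against SMI, the receptor TOMM70 had -0.21 and the pore TOMM40 0.40, and none passed. TOMM40 ranged from 65.1 to 126 CPM in the MDH2 IP and from 52.5 to 75.6 in the SMI. Per kb of mRNA, the small subunits had SMI levels of 149 (TOMM5), 114 (TOMM6) and 148 (TOMM7) CPM, against 46.9 for TOMM20, 45.9 for TOMM22, 37.0 for TOMM40 and 26.9 for TOMM70. Windows with 87.8% of the exon counts of TOMM5 and 71.5% of those of TOMM6 hold the same counts in overlapping gene models, so that these cannot be assigned to the TOM genes alone. TOMM34, a cytosolic cochaperone, was at 43.5 ± 7.29 CPM (SD, n = 3) in the MDH2 IP and 33.99 ± 5.24 in the SMI. SAMM50, the core of the complex that inserts outer-membrane beta barrels, was at 33.0 ± 7.66 and 37.9 ± 1.54. Neither passed.

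None of the inner membrane translocases or motor components passed between MDH2 IP and SMI. The 5 translocase mRNAs measured (TIMM17A, TIMM17B, TIMM21, TIMM23 and TIMM50) had log2 fold changes between -0.42 and 0.18. TIMM17B, a channel subunit, had the highest level per kb among them, 141 CPM in the MDH2 IP, 127 in the SMI and 138 in the IgG IP. TIMM44, which tethers the motor to the channel, was at 89.3, 95.1 and 71.2 CPM in the MDH2 IP, 61.0, 67.5 and 44.1 in the SMI, and 102, 87.7 and 105 in the IgG IP. Its 2 IPs lay above SMI in every library, with a log2 fold change of 0.53 ± 0.20 for MDH2 IP (adjusted p = 0.097, edgeR) and 0.80 ± 0.24 for IgG IP (adjusted p = 0.041). The HSP70 of the matrix, HSPA9, was at 518, 568 and 396 CPM in the MDH2 IP, 405, 435 and 342 in the SMI, and 419, 339.6 and 207 in the IgG IP. Its groups overlapped, and its log2 fold changes were 0.29 ± 0.17 over SMI (adjusted p = 0.27, edgeR) and 0.57 ± 0.26 over IgG IP (adjusted p = 0.32). DNAJC19 and GRPEL1, the J-protein and the nucleotide exchange factor of the motor, had log2 fold changes of -0.10 and 0.08 over SMI. The pseudogenes named after DNAJC19 held 10.7% as many counts as the gene itself, and those of every other member at most 2.15%.

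The matrix chaperonin mRNAs were among the most counted members and differed little from SMI. HSPD1, which encodes HSP60, had the highest level per kb in the MDH2 IP, 210.1 CPM, and in the SMI, 192, while in the IgG IP its 169 was below the 211 of TIMM13. Its exon level was 499, 392 and 524 CPM in the MDH2 IP, 408, 405 and 478 in the SMI, and 541, 255 and 345 in the IgG IP, and all 3 groups overlapped. The log2 fold change over SMI was 0.10 ± 0.16 (adjusted p = 0.70, edgeR). HSPE1, the HSP10 lid of the chaperonin, had -0.10 ± 0.32, and windows with 48.4% of its exon counts hold the same counts in the readthrough gene HSPE1-MOB4. TRAP1, the matrix HSP90, had 0.13 ± 0.16.

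The AAA+ protease LONP1 varied widely between replicates. Its level was 239, 327 and 143 CPM in the MDH2 IP, 152, 201 and 108 in the SMI, and 241, 283 and 122 in the IgG IP. In each group replicate 2 was the highest and replicate 3 the lowest. The log2 fold change was 0.59 ± 0.30 over SMI (adjusted p = 0.21, edgeR) and 0.09 ± 0.34 over IgG IP (adjusted p = 0.93). The difference from SMI changed when a single library was left out. Without MDH2 IP replicate 3 it passed, at 0.86 (adjusted p = 0.0447, edgeR). It was 0.29 (adjusted p = 0.526) without MDH2 IP replicate 2 and 0.37 (adjusted p = 0.447) without SMI replicate 3. With the replicate number as a block it was 0.56 ± 0.10 (adjusted p = 2.34e-05, edgeR). That fit was an alternative, since the sources used here do not say that libraries with the same number share a lysate. CLPP, the peptidase of the CLPXP protease, and CLPX, its unfoldase, had log2 fold changes of -0.25 and -0.09 over SMI.

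LONP1 was the member with enriched windows. Of 293 exon windows of 13 members that had enough counts for the test of MDH2 IP against SMI, 2 were enriched (adjusted p of at most 0.05, one-sided, and log2 fold change of at least 1), both in LONP1 exon 1. Among all windows, of exons and introns and of any gene type, 4.07% were enriched, and among exon windows of protein-coding genes 2.98%. The window at chr19:5720104-5720153, which holds the start codon (the LONP1 sequence above), had 18, 22 and 12 counts in the MDH2 IP, 3, 3 and 2 in the SMI, and 2, 4 and 0 in the IgG IP. Its log2 fold change was 2.48 ± 0.49 over SMI (adjusted p = 0.0030, edgeR) and 0.51 ± 0.66 over IgG IP (adjusted p = 1). The overlapping window at chr19:5720084-5720133 had 10, 21 and 13 counts in the MDH2 IP and 2, 2 and 3 in the SMI, with a log2 fold change of 2.45 ± 0.58 (adjusted p = 0.013). These windows share cross-link sites and are not independent. Both reached 10 counts only in the MDH2 IP libraries, so that they entered the test through the group in which they are high. When any of the 3 MDH2 IP libraries was left out, no member had an enriched window. Both LONP1 windows then reached 10 counts in fewer than 3 libraries and were not tested, so that the filter fixed this outcome. The filter could not remove them when an SMI library was left out, and LONP1 then kept its call in each case. With total counts as the scale all windows moved up by 0.57 on the log2 scale, and 8 members had an enriched window, among 12171 enriched windows in place of 2080.

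Windows of 3 members were lower in the MDH2 IP than in the SMI, 4 of the 293, against 9.92% of all windows and 5.68% of exon windows of protein-coding genes. They lie in the 3′ UTR of TOMM22 (chr22:38683987-38684056, with log2 fold changes of -1.86 and -1.83 in 2 overlapping windows), of TIMM17B (-1.16) and of TOMM5 (-2.42). The TOMM5 window had 2, 1 and 4 counts in the MDH2 IP, 11, 10 and 14 in the SMI, and 0 in each IgG IP library. This window and those of TOMM22 reached 10 counts only in the SMI, and so entered the test through the group in which they are high. Against IgG IP, none of 164 exon windows on 11 members was enriched in the MDH2 IP by edgeR's quasi-likelihood test, and 17 had an unadjusted one-sided p under 0.05. Among all windows 0.148% were enriched, and among exon windows of protein-coding genes 0.0385%. Between IgG IP and SMI, none of 146 exon windows was enriched by edgeR, with 5 at an unadjusted one-sided p under 0.05, and the TOMM5 window was lower, against 6.17% and 6.34% of all windows. For exon windows of protein-coding genes these shares were 3.95% and 2.56%.

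Against IgG IP, no member was higher in the MDH2 IP in exon sums by edgeR's quasi-likelihood test, and 3 had an unadjusted p under 0.05. TIMM13 was lower. Of the 12572 genes tested, 0.302% were higher and 1.8% lower. The members' median log2 fold change was 0.25 and that of all genes 0.04, and 24 of 32 members lay above 0. The 5 highest values were those of TIMM21 (1.08 ± 0.56), TIMM23 (0.94 ± 0.35), DNAJC19 (0.88 ± 0.72), TIMM9 (0.83 ± 0.48) and TIMM17A (0.81 ± 0.36), none of which passed, with adjusted p between 0.206 and 0.597 (edgeR). TIMM23 was at 14.3, 14.6 and 13.6 CPM in the IgG IP, 28.6, 24.3 and 30.99 in the MDH2 IP, and 24.1, 21.5 and 34.8 in the SMI. TIMM23 counts in the IgG IP libraries were 16, 9 and 7. Those of TIMM21 were 16, 3 and 1, those of DNAJC19 11, 2 and 0, and those of TIMM9 15, 5 and 2. Such low counts limit the precision of these values.

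Between IgG IP and SMI, 2 members were higher, TIMM13 and TIMM44, and 2 were lower, TOMM22 and TIMM17A. Over all 12787 genes tested, 9.59% were higher and 5.98% lower. TOMM22 was at 45.5, 48.7 and 62.0 CPM in the IgG IP and 85.9, 82.8 and 111 in the SMI, with a log2 fold change of -0.82 ± 0.24 (adjusted p = 0.040, edgeR). TIMM17A was at 24.98, 29.2 and 17.4 CPM in the IgG IP and 57.0, 59.2 and 53.8 in the SMI, with -1.19 ± 0.29 (adjusted p = 0.016). The TIMM44 call was lost without any single library except IgG IP replicate 2, with adjusted p between 0.0726 and 0.163, and the TOMM22 call without any except IgG IP replicate 3, between 0.0661 and 0.117. The TIMM17A call was lost without SMI replicate 1 or 2, with adjusted p of 0.0695 and 0.0524 (edgeR). The 3 comparisons share their libraries in pairs, so that their values are not independent of each other.

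The fold changes moved with base composition. Across the 32 members, the log2 fold change of MDH2 IP over SMI and the G+C content of the MANE Select mRNA, which ran from 38.7% to 63.3%, had a Pearson's r of 0.64 and a Spearman's rho of 0.58. Across 11184 protein-coding genes these were 0.58 and 0.65. For IgG IP over SMI they were 0.65 and 0.56 in the members and 0.61 and 0.65 over all. For MDH2 IP over IgG IP they were -0.36 and -0.28 in the members and -0.22 and -0.22 over all. These are correlations across genes that share the same libraries, given as a description. PMPCA and TIMM13, which were higher, have G+C contents of 56.8% and 62.1%, and TOMM20 and TIMM10B, which were lower, 40.5% and 45.7%. The part of base composition in these calls was not tested.

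Within the mRNAs, counts lay closer to the 5′ end in the MDH2 IP than in the SMI. Over all 32 members, exon 1 held 14.5%, 15.9% and 16.5% of exon counts in the MDH2 IP, 11.8%, 10.2% and 12.1% in the SMI, and 12.6%, 14.4% and 12.2% in the IgG IP. For 16 of the 32 members the first-exon share of each MDH2 IP library exceeded that of each SMI library, and for none did it fall below. Among 10266 protein-coding genes with at least 10 exon counts in each of these 6 libraries, the same held for 26.2% and 1.12%. Summed over those genes, exon 1 held 9.99 ± 0.549% (SD, n = 3) in the MDH2 IP, 7.80 ± 0.306% in the SMI and 10.3 ± 0.479% in the IgG IP. There the IgG IP was as far above the SMI as the MDH2 IP was, or farther. The members hold more of their counts in exon 1 than other genes in both groups (median 20.1% in the MDH2 IP and 9.55% in the SMI, against 6.41% and 3.85% over all), so the shares of genes are not directly comparable. The receptor TOMM70 had one of the clearer differences, with 26.6%, 35.3% and 33.1% in the MDH2 IP, 14.4%, 11.3% and 11.2% in the SMI, and 22.6%, 28.8% and 26.2% in the IgG IP. LONP1 had 18.7%, 20.6% and 20.6% in the MDH2 IP, 8.88%, 8.42% and 8.59% in the SMI, and 18.5%, 32.2% and 20.6% in the IgG IP. In both mRNAs the IgG IP lay above the SMI and near or above the MDH2 IP. TOMM20, whose whole-gene level was lower, also had a larger first-exon share, 23.4 ± 2.59% (SD, n = 3) in the MDH2 IP, 13.8 ± 2.53% in the SMI and 14.9 ± 6.45% in the IgG IP. The deposited exon 1 of HSPD1, TIMM17B and TOMM40 held 0 counts in every library, so that their first-exon shares say nothing.

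**Figure D4:**
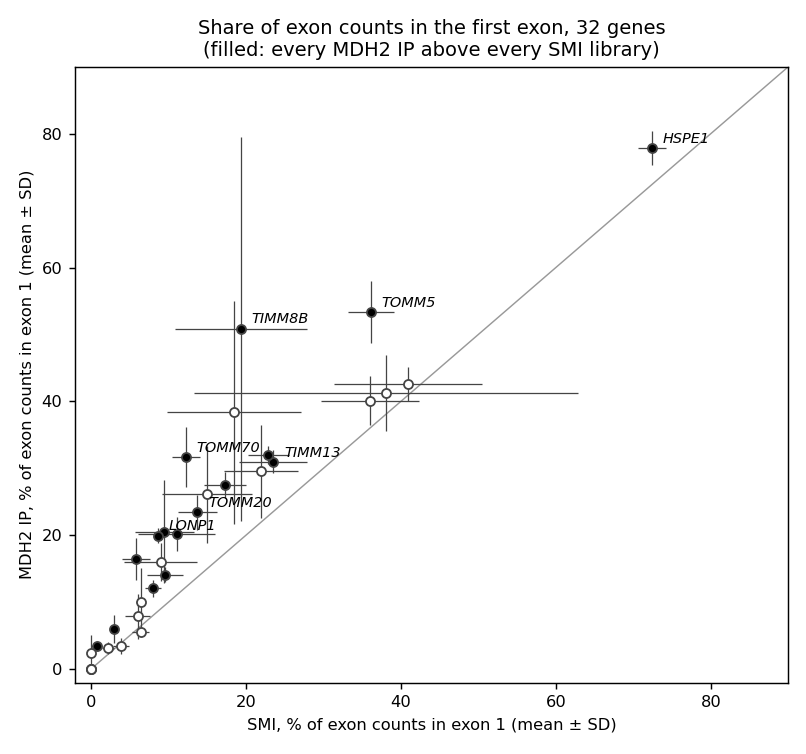
Share of exon counts in exon 1 in the MDH2 IP (y axis) and SMI (x axis), mean ± SD of 3 libraries in percent, for the 32 genes, with the line of equal shares. The 16 filled points, such as TOMM70, LONP1 and TOMM5, had shares in the MDH2 IP libraries that all exceeded those in the SMI libraries.

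By regions of the mRNA, counts also lay closer to the 5′ end in the MDH2 IP than in the SMI, while the place of the IgG IP differed between regions. Only the 22 members whose windows could all be placed on the annotation were used. This leaves out HSPA9, HSPD1 and LONP1, the members with the most MDH2 IP counts, among others. In the 22, 5′ UTR windows held 14.0 ± 0.574% of exon counts (SD, n = 3) in the MDH2 IP, 9.21 ± 0.498% in the SMI and 12.1 ± 1.20% in the IgG IP. Coding windows held 45.7 ± 2.84%, 39.1 ± 0.962% and 31.6 ± 6.15%, and 3′ UTR windows 40.3 ± 2.67%, 51.7 ± 0.801% and 56.3 ± 7.34%. The MDH2 IP libraries did not overlap the SMI libraries in any of these regions. The IgG IP shares turned on TIMM13, whose 3′ UTR held many of the IgG IP counts. Without it, an alternative added after the values were seen, the 5′ UTR, coding and 3′ UTR shares of the IgG IP were 13.96 ± 0.975%, 37.9 ± 4.58% and 48.1 ± 4.96%, against 13.9 ± 0.551%, 47.2 ± 2.88% and 38.98 ± 2.63% in the MDH2 IP and 9.26 ± 0.558%, 39.4 ± 0.807% and 51.3 ± 0.789% in the SMI. The MDH2 IP and IgG IP then overlapped in the 5′ UTR but not in the other regions, and the IgG IP mean in the 3′ UTR lay below that of SMI instead of above it. These shares were not tested, and they were not computed for other genes.

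Around the start codon, the excess over SMI lay in the bins before it and just after it and was smaller from 150 nt on. These bins were chosen after the peak windows had been seen. Over 12 members with windows placed there, the summed level in the 50 nt before the start codon was 51.5 ± 10.5 CPM (SD, n = 3) in the MDH2 IP, 28.4 ± 1.92 in the SMI and 38.4 ± 12.2 in the IgG IP. In the first 50 nt of the coding sequence, over 20 members, it was 124 ± 9.33, 87.0 ± 6.88 and 83.1 ± 14.8. MDH2 IP did not overlap SMI in either bin, but it did in the bins from 50 to 149 nt. Between 8 and 26 members had windows in a bin, so that the bins do not hold the same mRNAs. Neither the bins nor the shares near the start codon were computed for other genes. The ratio of the MDH2 IP to the SMI mean was 1.64 in the bin from 100 to 51 nt before the start codon, 1.82 and 1.42 in the 2 bins above, 1.31 and 1.28 in the next 2, and between 0.870 and 1.18 from 150 to 499 nt. The ratio of the MDH2 IP to the IgG IP mean was 1.47 in the bin farthest upstream, 1.34 and 1.49 in the 2 beside the start codon, and between 0.951 and 1.32 from 150 nt on. The G+C content of the mRNA bases in the bins fell along the same way, from 65.7% in the 2 bins beside the start codon to 47.6% in the last, and its part in the profile was not tested.

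**Figure D5:**
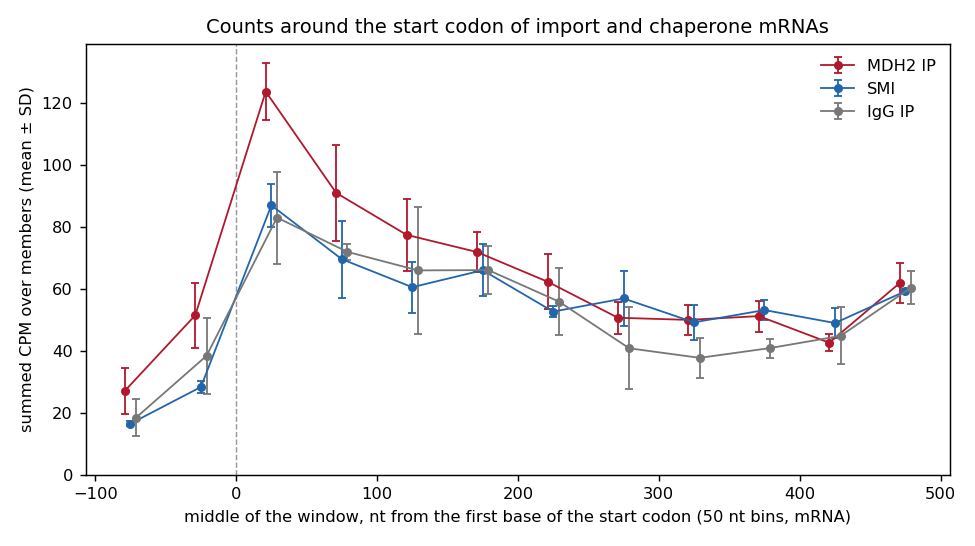
Summed CPM (y axis, mean ± SD of 3 libraries) in 50 nt bins by the distance of the window's middle from the start codon (x axis, nt of mRNA), for MDH2 IP, SMI and IgG IP. The MDH2 IP mean lies above the SMI mean up to 150 nt, with 124 against 87.0 CPM in the first coding bin, and at 0.870 to 1.18 times it beyond.

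Summed over the 21 mRNAs with windows placed within 50 nt of the start codon, the share of exon counts in those windows was 8.60 ± 0.502% (SD, n = 3) in the MDH2 IP, 6.05 ± 0.350% in the SMI and 5.77 ± 0.803% in the IgG IP. Without TIMM13, an alternative added after the values were seen, these were 8.29 ± 0.424%, 5.94 ± 0.420% and 6.09 ± 0.866%. The order of the SMI and IgG IP means was then reversed. Of the 23 members whose peak window had a position in the mRNA, 6 had it within 50 nt of the start codon: HSPD1, LONP1, TIMM13, TOMM5, TIMM17A and TIMM8B. The peak of HSPD1, in exon 4, had 92, 47 and 58 counts in the MDH2 IP, 47, 54 and 50 in the SMI, and 18, 4 and 6 in the IgG IP, with a log2 fold change of 0.20 ± 0.27 over SMI. That of TIMM13 had 22, 14 and 17 counts in the MDH2 IP, 8, 10 and 4 in the SMI, and 3, 2 and 3 in the IgG IP, with 1.09 ± 0.41 over SMI (adjusted p = 0.16, edgeR). That of TIMM17B, with its middle 62 nt after the start codon, had 25, 18 and 24 counts in the MDH2 IP, 11, 11 and 7 in the SMI, and 0, 3 and 2 in the IgG IP, with 1.04 ± 0.38 (adjusted p = 0.18). None of these 3 windows passed.

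Among the other highly counted members, HSPA9 peaked in exon 1, in a window that could not be placed, with 50, 58 and 35 counts in the MDH2 IP, 25, 28 and 22 in the SMI, and 9, 3 and 0 in the IgG IP (log2 fold change 0.76 ± 0.30 over SMI, adjusted p = 0.34, edgeR). TOMM20 peaked in the 5′ UTR at chr1:235128795-235128844, with 14, 13 and 8 counts in the MDH2 IP and 5, 7 and 8 in the SMI. TOMM70 peaked in the coding part of exon 1 at chr3:100400846-100400895, with 7, 14 and 6 counts in the MDH2 IP and 3, 2 and 2 in the SMI. TRAP1 peaked in exon 17 and TIMM50 in exon 9, both in coding sequence. TOMM22 peaked in the 3′ UTR, where it had 36, 11 and 23 counts in the MDH2 IP and 27, 28 and 32 in the SMI. These windows were not called, and as peak windows they were picked by their MDH2 IP level.

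Intron windows held fewer of the members' counts in the MDH2 IP. Introns took 26.6 ± 1.94% of their exon and intron counts (SD, n = 3) in the MDH2 IP, 34.3 ± 2.03% in the SMI and 38.6 ± 4.49% in the IgG IP, and 44.7 ± 3.19%, 57.7 ± 2.73% and 66.8 ± 3.58% for all protein-coding genes. Intron sums per gene were scaled by intron counts alone, so that their fold changes are relative to other introns. They are not on the scale of the exon sums and do not carry the smaller intron share of the MDH2 IP. On this scale, 8 of 29 members were higher in the MDH2 IP than in the SMI and 4 were lower (edgeR, adjusted p of at most 0.05), against 17.3% and 15.3% of all 14050 genes tested. The members' median log2 fold change was 0.12. Those higher were TIMM17B (1.26 ± 0.30), LONP1 (1.07 ± 0.32), TIMM44 (1.03 ± 0.21), PMPCA, SAMM50, TOMM40, HSPD1 and TRAP1. Those lower were TOMM20 (-2.01 ± 0.22), TIMM9 (-1.08 ± 0.20), TOMM7 (-0.89 ± 0.23) and TIMM23 (-0.86 ± 0.23).

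The TOMM20 value turns on a small nucleolar RNA gene. SNORA14B, an H/ACA box snoRNA, lies within intron 1 on the same strand, at chr1:235127803-235127937. The 9 windows that overlap it held 357, 564 and 453 counts in the SMI, 14, 26 and 6 in the MDH2 IP, and 10, 3 and 6 in the IgG IP, which is 65.5 ± 5.42% of TOMM20 intron counts (SD, n = 3) in the SMI and 14.7 ± 12.8% in the MDH2 IP. The 6 windows of the intron that were called lower in the MDH2 IP all lie there, with log2 fold changes between -6.31 and -3.19. They reached 10 counts only in the SMI, and so entered the test through the group in which they are high. The window with the most SMI counts (the TOMM20 sequence above) had 0, 4 and 1 counts in the MDH2 IP and 102, 155 and 127 in the SMI. The other intron windows of TOMM20 were at 24.7 ± 10.1 CPM in the MDH2 IP against 59.3 ± 7.87 in the SMI and 36.5 ± 17.2 in the IgG IP. These CPM were scaled by exon counts, unlike the intron log2 fold changes. Since introns in general took a smaller share of counts in the MDH2 IP, part of this difference lies in the scale. The exon sums hold none of these windows. TIMM23 holds another snoRNA gene, SNORA74C-1, within its boundaries.

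The wider import and quality control system was checked with a list of 39 other genes, of which 37 were tested in each comparison. In the comparison with SMI, the MDH2 IP was higher for 3 (GFER, SPG7 and LETM1) and lower for 4 (MTX3, DNAJC15, GRPEL2 and XPNPEP3), with a median log2 fold change of 0.07. The 5 with the lowest adjusted p were GRPEL2, MTX3, GFER, DNAJC15 and SPG7. GFER, the oxidase of the intermembrane space import pathway, was at 59.4, 63.4 and 56.6 CPM in the MDH2 IP, 20.6, 28.9 and 29.1 in the SMI, and 37.5, 76.4 and 56.2 in the IgG IP, with a log2 fold change of 1.15 ± 0.19 over SMI (adjusted p = 0.0037, edgeR) and 0.07 over IgG IP. SPG7, a subunit of the m-AAA protease, was at 230.0 ± 5.35 CPM (SD, n = 3) in the MDH2 IP, 159 ± 2.91 in the SMI and 168 ± 12.2 in the IgG IP. GRPEL2, a paralog of GRPEL1, was at 24.3 ± 3.81 in the MDH2 IP, 61.0 ± 8.74 in the SMI and 33.3 ± 8.49 in the IgG IP, MTX3, a metaxin of the outer membrane, at 37.3 ± 1.05, 73.8 ± 9.53 and 29.5 ± 11.9, and DNAJC15, a paralog of DNAJC19, at 8.26 ± 2.95, 19.7 ± 2.16 and 9.43 ± 5.91. Both IPs lay on the same side of SMI for GFER, GRPEL2, MTX3 and DNAJC15. Against IgG IP, none of the 37 was called by edgeR, and between IgG IP and SMI GFER was higher and MTX3 lower.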

How the data were processed

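The authors trimmed the eCLIP reads (cutadapt 2.5), aligned them to GRCh38 (STAR 2.7.1a, up to 10 alignments per read), removed PCR duplicates by molecular identifiers (UMI-tools 1.0.0) and took the base before each alignment as the cross-link site. They deposited raw counts of sites per 50 nt window (step 20 nt, GENCODE 23 with tRNA genes, htseq-clip), which were used as deposited. All 9 count columns were used, and 0 were left out. Identifiers were named through GENCODE 44 (33751 of 34950 matched). A numbered tRNA entry that repeats the counts of a mitochondrial tRNA was left out (1 identifier).

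Exon windows were summed per gene. For each comparison, edgeR 4.0.16 under R 4.3.3 (TMM, quasi-likelihood, only those 2 groups) was run on genes or windows that reached 10 counts in 3 or more of its 6 libraries. Gene tests were two-sided. Window tests were one-sided, and each p was first scaled up by how many tested windows overlapped it, then corrected by Benjamini-Hochberg. CPM used TMM factors over all 9 libraries. Windows were placed on GRCh38 by matching the numbering of windows to GENCODE 44 exon ends, which placed 215 of 261 exons with 72.4% of the members' exon counts. Regions are those of MANE Select transcripts, by the window's middle. Since sites fall into up to 3 windows, sums exceed the number of sites. Reads of near-identical copies can be shared. Between replicates, the chi-square per degree of freedom of the gene sums was at least 5.83. Counting a site in up to 3 windows inflates this value, so that it does not measure the excess over sampling noise.

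The members and lists were chosen with earlier results of these data known. The text names all 34 members, the peak exon window of the 10 with the most MDH2 IP counts and of those with a called window, every enriched window, and up to 5 called genes of the other list. Other peak windows, the regions and the bins around the start codon were chosen after values were seen.

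In a check on simulated data with 200 of 13577 genes raised for MDH2 IP against SMI, 0% of those raised 1.5-fold, 31.3% of those raised 2-fold and 86.4% of those raised 4-fold were recovered, with 4 false calls. For MDH2 IP against IgG IP (12085 genes) the shares were 1.49%, 11.9% and 77.3%, with 2 false calls. For IgG IP against SMI (12245 genes) they were 2.99%, 32.8% and 90.9%. For windows of MDH2 IP against SMI (43729), 0%, 7.46% and 98.5% were recovered, and against IgG IP (23888) 0%, 0% and 45.5%. All other genes and windows were left unchanged there, while in the data 2693 of 13922 genes were called for MDH2 IP against SMI. With few raised the adjustment is stricter, so that these shares need not hold for the data. The alternatives tried were other scalings, filters and window sets, DESeq2 1.42.0 (Wald test), 1 fit over the 3 groups, a block for replicate number, a two-sided window p, and leaving out each library.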

Additional observations from a re-analysis of the deposited data

How the results depend on the processing

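PMPCA kept its call between MDH2 IP and SMI under every alternative run, with log2 fold changes between 0.73 and 1.08. The number of members higher in MDH2 IP than in SMI, 2, became 1 with all 9 libraries in the fit and 5 with intron windows added. The number lower, 2, became 1 with total counts as the scale and 0 with all 9 libraries. Their median, -0.093, became 0.072 with total counts and 0.126 with introns. Members with an enriched window, 1, became 8 with total counts. Leaving out each library gave 1 to 2 higher, 0 to 2 lower, medians from -0.105 to 0.062 (above 0 without MDH2 IP replicate 2 or SMI replicate 3), and 0 to 1 members with an enriched window. The 0 came from leaving out an MDH2 IP library, where the LONP1 windows no longer passed the count filter. Between MDH2 IP and IgG IP, with introns added 5 members were higher and the median, 0.248, became 0.573. Leaving out a library gave 0 higher, 0 to 1 lower, medians from 0.175 to 0.344 and no enriched window. Without an MDH2 IP library, 18 exon windows were tested in place of 164. Between IgG IP and SMI, the 2 higher became 1 without a filter on low counts. The 2 lower became 1 with total counts or with a filter of 30 counts, 0 with 1 in 3 exon windows and 8 with introns, and the 0 members with an enriched window became 1 with total counts. Leaving out a library gave 1 to 2 higher, 0 to 2 lower, 0 to 1 with an enriched window (1 without IgG IP replicate 2), and medians from -0.34 to -0.251. Without an SMI library, 17 or 18 exon windows were tested in place of 146. SAMM50, at -0.44 for IgG IP over SMI, reversed to 0.647 with introns added. The cause of these changes was not tested, beyond the shift of scale under total counts.

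With the replicate number as a block, 6 members were higher and 6 lower between MDH2 IP and SMI, 2 had an enriched window, and 1 was higher between MDH2 IP and IgG IP, while over all genes the calls between MDH2 IP and SMI went from 2693 to 5815. Deviations of same-numbered libraries from their group means correlated at 0.075 for replicate 1, 0.48 for replicate 2 and 0.50 for replicate 3 between MDH2 IP and SMI, so that not every pair passed 0.1, and the libraries were treated as sharing only a number. LONP1 was among those higher, at 0.56 ± 0.10 (adjusted p = 2.34e-05, edgeR). The study's methods say that the SMI was set aside from the input before the IP, but the sources used here do not say that libraries of 1 number share a lysate.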
